A study of Mus musculus with 36 samples.

Results

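Hepatic stellate cells (HSC) and liver sinusoidal endothelial cells (LSEC) of WT mice were compared across the transcriptome, from 4 HSC and 4 LSEC libraries chosen by their titles out of 36 in the study. All 36 libraries were bulk RNA-seq of total RNA from livers of the strain C57BL/6. They held HSC, LSEC and hepatocytes, with 4 libraries of each cell type in each of 3 conditions. The WT condition was mice given PBS, and the other conditions were mice sampled 12 h and 36 h after their Kupffer cells had been depleted by an injection abbreviated DT. No genotype, age or sex was given for any group, and nothing said whether a library was one mouse or a pool, so p-values measure the spread between these libraries. The study asked how stellate cells, endothelial cells and hepatocytes form the niche of Kupffer cells, which are liver macrophages. The WT libraries hold what each of these partner cells transcribed in mice without the DT injection.

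Stellate cells are the mesenchymal cells of the space of Disse, between the sinusoid and the hepatocyte plates. They store retinyl esters in lipid droplets, wrap the sinusoid as pericytes do and are the main source of fibrillar matrix when the liver scars. Sinusoidal endothelial cells line the same channel as a fenestrated sheet with little basement membrane, and they clear waste molecules from blood through scavenger receptors. Both types lie side by side along the sinusoid, so ligands of one commonly meet receptors of the other.

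The markers given for the cells were Lrat, the enzyme that esterifies retinol for storage, and Stab2, an endothelial scavenger receptor for hyaluronan. Lrat had 3699.8, 2992, 4025 and 3181 CPM in HSC libraries, against 0.799, 1.01, 1.91 and 0.668 CPM in LSEC libraries. Stab2 had 2.12, 7.35, 4.35 and 5.30 CPM in HSC libraries, against 5979, 5832, 4443 and 4879 CPM in LSEC libraries. Each marker was high in its own 4 libraries and low in the other 4, with no overlap. The log2 fold (HSC over LSEC) was 11.61 ± 0.36 (SE) for Lrat and -10.11 ± 0.40 for Stab2, with adjusted p = 3.71e-10 and 2.77e-09. These p-values come from the quasi-likelihood test of edgeR, adjusted by the Benjamini-Hochberg method over every gene tested. CPM are counts per 1000000 after TMM scaling, and a value written a ± b is the mean and SD of the 4 libraries of that cell type (n = 4 each). A gene is called where that adjusted p is under 0.05.

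Promoters of 4 genes that separate the cell types are shown because the transcription factors described further on bind such regions. Each is the 250 bases before the RefSeq start on the build GRCm38.p6, read in the direction of the gene. Capitals mark short runs that were searched on both strands because they resemble known cores of factor families: AGATAA for GATA proteins, CAGGAA for ETS proteins, TAATTA for homeobox proteins, GGAATG for TEAD proteins, CAGCTG for basic helix-loop-helix proteins and ACAAAG for SOX proteins. Lrat and Hand2, a transcription factor of mesenchyme, were higher in HSC. Stab1, a scavenger receptor, and Tek, the receptor for angiopoietins, were higher in LSEC. Their positions are chr3:82903975-82904224 (minus strand), chr8:57320733-57320982 (plus strand), chr14:31168642-31168891 (minus strand) and chr4:94739039-94739288 (plus strand).
Lrat: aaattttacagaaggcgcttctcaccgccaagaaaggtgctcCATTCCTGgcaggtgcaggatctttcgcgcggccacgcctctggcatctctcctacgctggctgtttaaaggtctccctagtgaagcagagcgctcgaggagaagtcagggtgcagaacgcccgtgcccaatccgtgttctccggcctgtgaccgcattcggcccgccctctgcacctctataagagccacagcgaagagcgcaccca
Hand2: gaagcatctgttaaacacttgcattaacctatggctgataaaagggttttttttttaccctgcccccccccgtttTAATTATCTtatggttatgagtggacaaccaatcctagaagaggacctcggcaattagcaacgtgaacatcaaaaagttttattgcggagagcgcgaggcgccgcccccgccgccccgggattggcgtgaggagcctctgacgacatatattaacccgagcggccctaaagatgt
Stab1: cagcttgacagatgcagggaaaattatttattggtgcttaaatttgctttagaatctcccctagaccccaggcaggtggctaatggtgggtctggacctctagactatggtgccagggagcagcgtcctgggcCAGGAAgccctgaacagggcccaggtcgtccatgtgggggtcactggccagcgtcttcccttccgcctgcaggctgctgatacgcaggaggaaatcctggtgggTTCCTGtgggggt
Tek: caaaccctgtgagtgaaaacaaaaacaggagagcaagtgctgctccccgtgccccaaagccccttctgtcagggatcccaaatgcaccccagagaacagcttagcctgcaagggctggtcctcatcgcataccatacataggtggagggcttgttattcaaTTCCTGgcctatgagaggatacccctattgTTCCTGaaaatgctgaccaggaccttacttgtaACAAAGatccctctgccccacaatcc
In the Lrat window the marked run holds CAGGAA and GGAATG on the opposite strand, sharing letters, and in the Hand2 window it holds TAATTA and AGATAA, which also share letters. The Stab1 window held CAGGAA at 2 places and the Tek window at 2 places, beside ACAAAG in Tek.

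Except CAGGAA in HSC, the shares of promoters holding the letters lay somewhat above those of all genes tested on both sides of the comparison, and these differences were not tested. CAGGAA stood in 21.7% of the promoters of genes called and at least 2-fold higher in HSC, in 25.4% of those higher in LSEC, in 22.5% of those of all genes tested and in 25.7% of the whole table. AGATAA stood in 6.07% of HSC promoters, 6.87% of LSEC promoters, 5.89% of those tested and 9.99% of the table. The shares for TAATTA were 3.16% and 2.64% against 2.53% tested and 4.84% in the table, those for GGAATG 13% and 12.5% against 10.8% and 12.6%, those for CAGCTG 14.9% and 13.2% against 11.9% and 13%, and those for ACAAAG 13.8% and 14.3% against 12.3% and 16.5%. Of the 2544 HSC genes 1868 had a promoter in the table, and of the 1984 LSEC genes 1462. A match is a run of letters and not a bound site.

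The 4 HSC libraries held 25.9 to 31.7 counts in genes and the 4 LSEC libraries 27.5 to 30.1, both in units of 1000000. Genes with at least 1 count numbered 14505 to 14676 in HSC and 14207 to 14350 in LSEC. The 50 highest genes took 24.2% to 25.9% of HSC counts and 18.7% to 19.3% of LSEC counts. Per kilobase of exon, the highest genes of HSC were Ecm1 (14359 CPM per kb in HSC, 104 in LSEC), Plvap (7226 and 234), B2m (7211 and 4257), Igfbp7 (4159 and 3508) and Dcn (3771 and 0.911). In LSEC the order was B2m, Igfbp7, Aqp1 (5.20 CPM per kb in HSC, 3210 in LSEC), Ftl1 (1453 and 3047) and Apoe (1328 and 2564). Ecm1 encodes a secreted matrix protein and Aqp1 a water channel, and both were far lower in the other cell type. In bulk libraries fewer cells of a type and less RNA per cell cannot be told apart.

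Markers of the 2 cell types separated the libraries. Of 20 stellate markers, 19 were called higher in HSC, and Nes, an intermediate filament, was not called at 74.3 ± 34.2 CPM in HSC and 66.1 ± 19.3 CPM in LSEC. All 20 sinusoidal markers were called higher in LSEC, with Ctsl, a lysosomal protease, under 2-fold. Stellate markers stood in LSEC at a median of 0.0365% of their HSC level, and 15 of 20 were under 0.2%. Sinusoidal markers stood in HSC at a median of 0.142% of their LSEC level, and 12 of 20 were under 0.2%. The other 8 stood in HSC at very different shares of their LSEC level: Ctsl at 52.8%, Gata4 at 35%, Ehd3 at 34.6%, Bmp2 at 8.93%, Tek at 3.18%, Gpr182 at 1.68%, Clec4g at 1.28% and Tie1 at 0.479%.

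Hepatocyte transcripts were present at trace level and not equally. Of 18 hepatocyte markers tested, 14 were called higher in HSC and 0 in LSEC. Their summed level ranged from 421 to 610 CPM in HSC and from 58.9 to 243 CPM in LSEC, against a mean of 153767 CPM in WT hepatocytes, and the median marker stood at 0.274% of its hepatocyte level in HSC and at 0.0941% in LSEC. Of the 2544 genes called and at least 2-fold higher in HSC, 189 stood in HSC at under 1% of their level in WT hepatocytes, and of the 1984 on the LSEC side 5 did so in LSEC. Where such genes fill a list named further on, their number is given beside it, and their part in the result was not tested.

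Of 14 Kupffer cell markers measured, 4 of 12 tested were called, all higher in LSEC, where 31.8% of all genes tested were called higher in LSEC. The sum ranged from 6.66 to 27.4 CPM in HSC and from 70.1 to 87.7 CPM in LSEC. Fcer1g, the signalling chain of Fc receptors, gave most of the LSEC sum but little of the HSC sum (0.685 ± 0.268 CPM in HSC and 50.6 ± 4.60 CPM in LSEC). Without it the sums were 6.25 to 26.8 CPM in HSC and 20.2 to 43.2 CPM in LSEC. Clec4f, which marks Kupffer cells, had 0.630 ± 0.572 CPM in HSC and 1.48 ± 0.844 CPM in LSEC and was not called. It was called higher in LSEC by edgeR without HSC replicate 4 (adjusted p = 0.0133) or LSEC replicate 4 (0.0407). Monocyte and neutrophil markers summed to 239 to 336 CPM in HSC and 8.49 to 12.2 CPM in LSEC, and erythroid and platelet markers to 249 to 358 CPM and 8.92 to 13.4 CPM. One gene carried each sum: Plac8 had 302 ± 43.2 CPM in HSC and 7.64 ± 1.88 CPM in LSEC and Itga2b, an integrin chain of platelets, had 285 ± 58.3 CPM in HSC and 8.16 ± 1.48 CPM in LSEC. Without them the sums were 1.04 to 1.42 CPM in HSC and 1.83 to 3.91 CPM in LSEC for monocytes and neutrophils, and 11.4 to 21.1 CPM and 2.66 to 4.04 CPM for erythroid cells and platelets. Camp, Elane, Mpo, Ngp and Chil3 of the neutrophil list and the hemoglobin genes Hba-a1, Hba-a2, Hbb-b1, Hbb-b2 and Hbb-bt had no count in all 8 libraries. Lymphocyte markers summed to 0.160 to 0.658 CPM in HSC and 2.62 to 9.12 CPM in LSEC, and cholangiocyte markers to at most 4.27 CPM in HSC and 1.57 CPM in LSEC.

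Of 12707 genes tested between the 8 WT libraries, 8349 (65.7%) were called: 4314 (33.9%) higher in HSC and 4035 (31.8%) higher in LSEC. With a fold of at least 2, the calls were 4528 (35.6%), of which 2544 (20%) were higher in HSC and 1984 (15.6%) higher in LSEC. In 7837 genes (61.7%) the 4 HSC and 4 LSEC values did not overlap. The median log2 fold of all genes tested was 0.01. At 16-fold and more the calls were 1002 for HSC and 584 for LSEC, at 256-fold 461 and 177, and at 1024-fold 239 and 21. In 180 genes tested LSEC had no count in any library while HSC did, and in 64 the reverse held; with at least 20 CPM in the higher cell type these were 21 and 1.

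The gene lists were whole families or pathway lists, sorted into classes, and were chosen with earlier results of these data known. Each is set beside the shares of 20% and 15.6% just given, as a description. Matrix genes stood farthest from those shares: 114 of 166 tested (68.7%) were at least 2-fold higher in HSC and 25 (15.1%) in LSEC. Among ligands 85 of 157 (54.1%) were higher in HSC and 40 (25.5%) in LSEC. Receptors were divided, with 107 of 261 (41.0%) higher in HSC and 93 (35.6%) in LSEC, and so were transcription factors, with 77 of 259 (29.7%) and 69 (26.6%). Metabolic genes, with 127 of 479 (26.5%) and 91 (19.0%), were nearest to all genes. The HSC counts include genes at under 1% of their hepatocyte level, among them 22 of 27 cytochrome P450 genes of the metabolic class. Their part in these shares was not tested. The median log2 fold was 3.78 for matrix genes, 1.54 for ligands, 0.06 for receptors, 0.09 for transcription factors and 0.00 for metabolic genes.

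**Figure D1:**
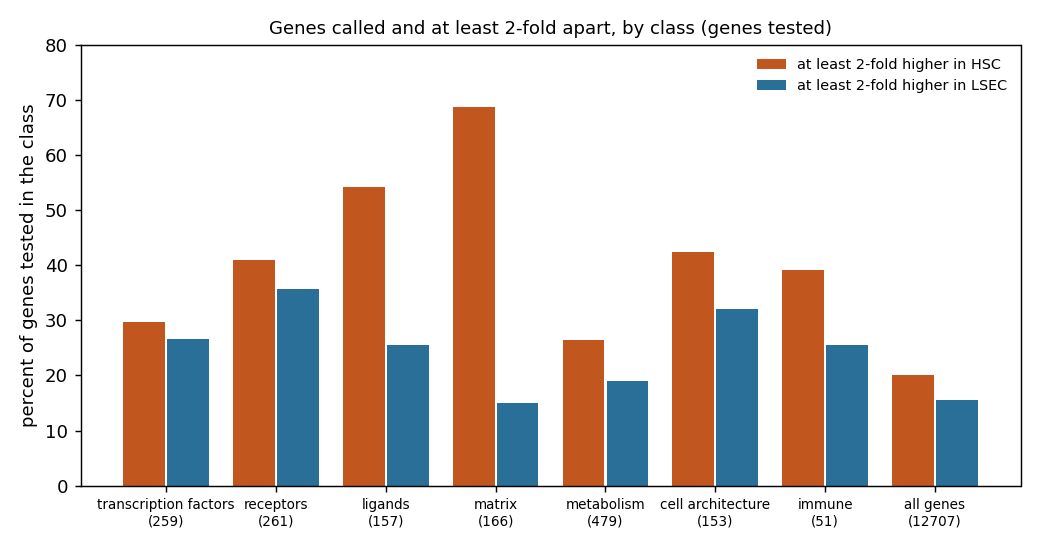
Percent of the genes tested in each class that were called and at least 2-fold higher in HSC (left bar) or in LSEC (right bar); the number of genes tested is under each class. Matrix genes reach 68.7% for HSC and 15.1% for LSEC, beside 20% and 15.6% over all genes. Genes at under 1% of their hepatocyte level are included.

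HSC and LSEC used different members of the same families of transcription factors. Lhx2, a LIM homeobox factor that mouse stellate cells need to stay quiescent, had 564, 449.9, 488 and 474 CPM in HSC libraries, against 0.133, 0.324, 0.216 and 0.167 CPM in LSEC libraries. Tcf21, a basic helix-loop-helix factor of visceral mesenchyme, had 731, 601, 550.4 and 666 CPM in HSC libraries, against 0.366, 0.0719, 0.679 and 0.2004 CPM in LSEC libraries. Both were under 1 CPM in every LSEC library, with log2 folds of 11.18 ± 0.20 and 10.86 ± 0.35. Foxf1, a forkhead factor of the mesenchyme around the gut and lung, had 760.0 ± 75.0 CPM in HSC and 0.2001 ± 0.119 CPM in LSEC (log2 fold 11.86). Hand2, a basic helix-loop-helix factor of lateral mesoderm, had 154 ± 29.5 CPM in HSC and 0.0334 ± 0.00209 CPM in LSEC (log2 fold 12.00), and Tbx20, a T-box factor best known from the heart, had 258 ± 28.8 CPM in HSC and 0.0417 ± 0.0168 CPM in LSEC (log2 fold 12.45). Heyl, a nuclear target of Notch signalling, had 384, 548, 534 and 800.1 CPM in HSC libraries, against 0.0999, 0.0719, 0 and 0 CPM in LSEC libraries; no library of one type came near the other.

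Among nuclear receptors 10 of 35 tested were at least 2-fold higher in HSC and 7 in LSEC. Nr1h4, the bile acid receptor FXR, had 331 ± 26.9 CPM in HSC and 0.810 ± 0.148 CPM in LSEC. Nr1h5, a second FXR-like receptor that is active in mice, had 172 ± 12.8 CPM in HSC and 0.0713 ± 0.0806 CPM in LSEC. Esr1, the oestrogen receptor, had 153 ± 14.1 CPM in HSC and 11.4 ± 2.99 CPM in LSEC. Rxra, the common partner of retinoid and lipid receptors, had 681 ± 42.2 CPM in HSC and 264 ± 11.7 CPM in LSEC. On the LSEC side the levels were lower: Nr5a2 had 0.0344 ± 0.0269 CPM in HSC and 12.4 ± 1.34 CPM in LSEC. Rarg, a retinoic acid receptor, had 60.2 ± 3.85 CPM in HSC and 129 ± 23.5 CPM in LSEC and Pparg, a lipid-responsive receptor, had 0.0844 ± 0.0651 CPM in HSC and 5.18 ± 1.06 CPM in LSEC. The retinoic acid receptor Rarb was not called (92.1 ± 14.3 CPM in HSC and 80.6 ± 17.7 CPM in LSEC).

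Endothelial factors made the LSEC side. Sox18 had 0.937, 0.928, 1.20 and 1.78 CPM in HSC libraries, against 788, 393, 767 and 509.8 CPM in LSEC libraries. Sox17 had 0.388 ± 0.221 CPM in HSC and 98.9 ± 11.3 CPM in LSEC and Sox7 0.740 ± 0.0707 CPM in HSC and 164 ± 33.8 CPM in LSEC; these 3 form the subgroup of SOX factors known for endothelial development, while the other SOX members at least 2-fold apart (Sox4, Sox5, Sox6, Sox8 and Sox12) were higher in HSC. Among ETS factors 8 of 19 tested were at least 2-fold higher in LSEC and 1 in HSC. Erg, which maintains endothelial identity, had 0.386 ± 0.0392 CPM in HSC and 58.2 ± 8.51 CPM in LSEC (log2 fold -7.22 ± 0.17). Elk3 had 59.6 ± 2.35 CPM in HSC and 664 ± 45.2 CPM in LSEC. Fli1 had 16.9 ± 2.03 CPM in HSC and 122 ± 13.5 CPM in LSEC and Ets2 had 223 ± 17.3 CPM in HSC and 751 ± 33.5 CPM in LSEC, while Etv1 was the member higher in HSC (59.2 ± 5.16 CPM in HSC and 13.6 ± 2.56 CPM in LSEC). Hhex, a homeobox factor of early endothelium and liver, had 0.461 ± 0.411 CPM in HSC and 69.4 ± 20.4 CPM in LSEC, Mecom 0.618 ± 0.540 CPM in HSC and 72.8 ± 17.3 CPM in LSEC and Maf 11.7 ± 3.83 CPM in HSC and 201 ± 29.0 CPM in LSEC. Id4, an inhibitor of basic helix-loop-helix factors, had 0.990 ± 0.299 CPM in HSC and 121 ± 39.4 CPM in LSEC. Twist1, of that same helix family, had 2.33 ± 0.303 CPM in HSC and 41.6 ± 15.4 CPM in LSEC.

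GATA factors were divided between the cell types. Gata4, which mouse LSEC need to form a sinusoidal rather than a continuous vessel, had 383, 312, 274 and 317 CPM in HSC libraries, against 1099.5, 903, 948 and 723 CPM in LSEC libraries. It was higher in every LSEC library than in any HSC library, yet it was a well-measured gene of both (log2 fold -1.51 ± 0.15). Gata6 had 75.3 ± 14.4 CPM in HSC and 0.338 ± 0.0927 CPM in LSEC. Gata2 had 0.809 ± 0.551 CPM in HSC and 95.6 ± 17.8 CPM in LSEC. Gata5 had 12.1 ± 7.24 CPM in HSC with no count in LSEC, at least 485-fold higher (floor of 3 counts over the 4 LSEC libraries). The ZEB pair was divided too: Zeb2 had 631 ± 24.3 CPM in HSC and 137 ± 9.72 CPM in LSEC and Zeb1 had 30.2 ± 5.56 CPM in HSC and 156 ± 10.4 CPM in LSEC, with log2 folds of 2.20 ± 0.09 and -2.36 ± 0.13. Both groups of 4 were apart in each of the 2 genes.

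Klf2 and Klf4, factors that respond to flow in endothelium, varied between the libraries of a type. Klf2, which shear stress induces, had 123, 528, 126 and 101 CPM in HSC libraries, against 1444, 2704, 745 and 657 CPM in LSEC libraries. Replicate 2 was the highest of its group in both cell types, though no HSC value reached an LSEC value (log2 fold -2.66 ± 0.63, adjusted p = 0.00326 by edgeR's quasi-likelihood test). Klf4 had 2.32, 16.4, 1.56 and 2.86 CPM in HSC libraries, against 58.1, 128, 10.9 and 11.8 CPM in LSEC libraries, and its groups overlapped. Immediate early genes, which also respond to tissue dissociation, moved with replicate 2: their summed level was 5077, 13822, 4070.4 and 3909.7 CPM in HSC replicates 1 to 4 and 10041, 26374, 4348 and 3796 CPM in LSEC replicates 1 to 4. Of 30 such genes tested 22 were not called, 2 were higher in HSC and 6 in LSEC. Their part in the difference of Klf2 and Klf4 was not tested. Without replicate 2 of both types the log2 fold of Klf2 was -3.02 with adjusted p = 2.37e-05, and that of Klf4 was -3.56 with adjusted p = 0.00170, by the same edgeR test.

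Several factors were shared. Tbx2 had 156, 288, 319 and 254 CPM in HSC libraries, against 252, 309.9, 202 and 243 CPM in LSEC libraries. Id3, a target of BMP signalling, had 997, 1122, 834 and 1093 CPM in HSC libraries, against 1021, 749, 927 and 752 CPM in LSEC libraries. The libraries of the cell types were interleaved in both genes, and neither was called (adjusted p = 0.958 and 0.173 by edgeR). Hlx, a homeobox factor of visceral mesenchyme, had 286 ± 56.7 CPM in HSC and 215 ± 51.1 CPM in LSEC and Klf6, an immediate early factor, had 214 ± 34.0 CPM in HSC and 173 ± 52.6 CPM in LSEC, also not called. Hlx was called higher in HSC with the replicate number as a block (adjusted p = 0.0383), without HSC replicate 4 (0.0224) and without LSEC replicate 1 (0.0227), and Klf6 without LSEC replicate 2 (0.0105). A p that misses the threshold does not show equal levels: the SE of the log2 fold was 0.20 for Tbx2 and 0.19 for Hlx.

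**Figure D2:**
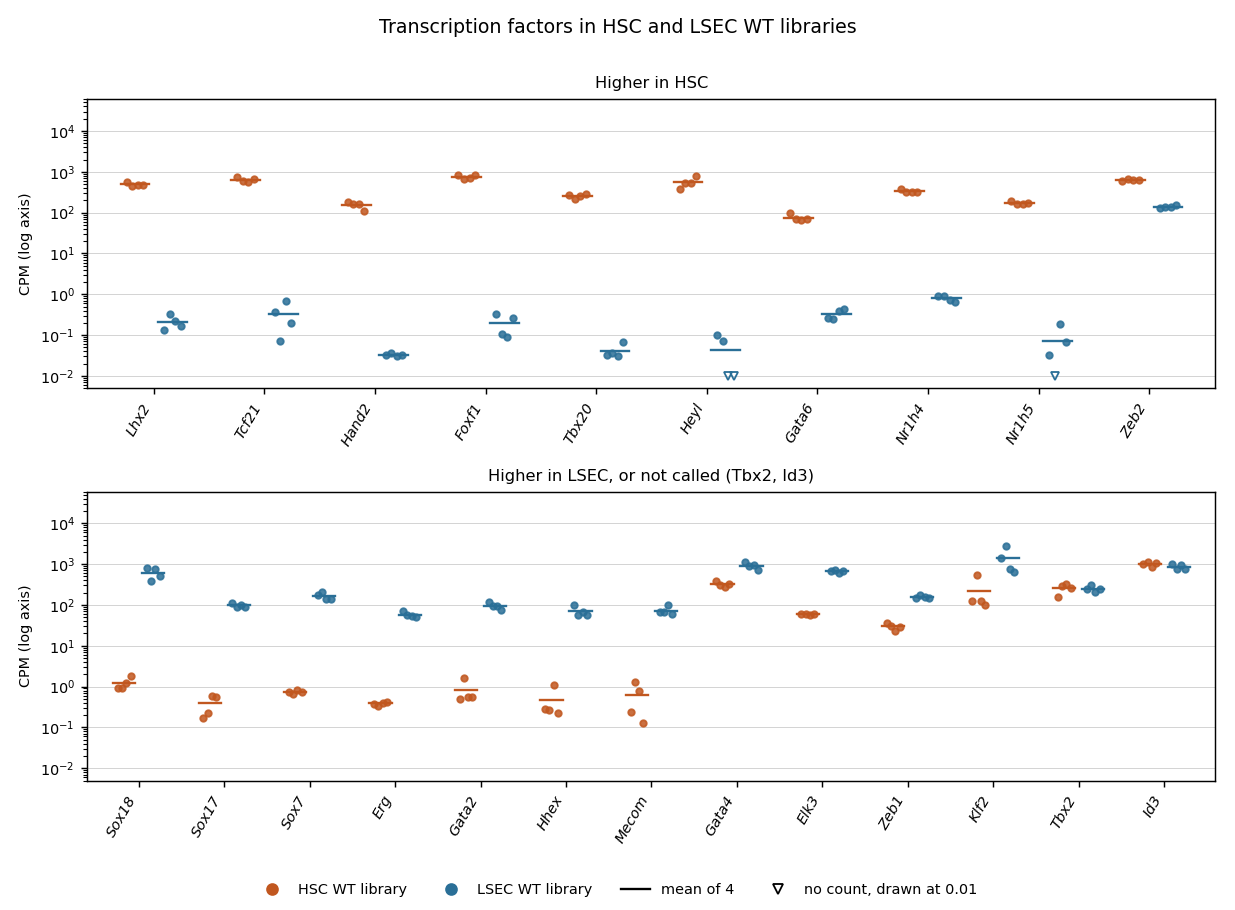
CPM (log axis) of transcription factors in each HSC and LSEC library of WT mice; points are libraries, bars are means of 4 and open triangles are libraries with no count. Lhx2 lies between 449.9 and 564 CPM in HSC and at 0.324 CPM or less in LSEC, whereas the points of Tbx2 and Id3 are interleaved.

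Receptor tyrosine kinases were divided between mesenchymal and vascular members, with 12 of 26 tested at least 2-fold higher in HSC and 9 in LSEC. Pdgfrb, the PDGF receptor of pericytes and stellate cells, had 1480.2, 1757, 1911 and 2218 CPM in HSC libraries, against 0.366, 0.503, 0.524 and 0.0334 CPM in LSEC libraries. Pdgfra had 800.2 ± 117 CPM in HSC and 0.195 ± 0.145 CPM in LSEC. Fgfr2, a receptor for fibroblast growth factors, had 2261 ± 329.9 CPM in HSC and 0.678 ± 0.261 CPM in LSEC. Ddr2, a receptor for fibrillar collagen, had 498 ± 24.9 CPM in HSC and 1.23 ± 0.880 CPM in LSEC. On the endothelial side Kdr, the main VEGF receptor, had 2.78, 9.62, 8.10 and 4.48 CPM in HSC libraries, against 6659, 6251, 5247 and 5633 CPM in LSEC libraries. Flt4, the receptor for VEGF-C, had 2.47 ± 1.59 CPM in HSC and 2435 ± 533 CPM in LSEC. Tie1 had 5.76 ± 0.911 CPM in HSC and 1204 ± 160.3 CPM in LSEC. Tek, the angiopoietin receptor, had 37.3 ± 11.6 CPM in HSC and 1172 ± 113 CPM in LSEC and Kit, the receptor for stem cell factor, had 0.986 ± 0.438 CPM in HSC and 562 ± 152 CPM in LSEC. Of the receptors just named, those of one type stood in the other at under 10 CPM in each library, except Tek, which had 21.3 to 49.1 CPM in HSC libraries. Other members of the list were less far apart, such as Axl and Mertk, given next.

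The TAM receptors, which recognise dying cells through bridging proteins, lay apart. Axl had 422 ± 32.1 CPM in HSC and 23.7 ± 2.67 CPM in LSEC and Mertk had 40.6 ± 6.96 CPM in HSC and 366 ± 43.3 CPM in LSEC.

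Of 44 receptors for vasoactive and lipid mediators tested 25 were at least 2-fold higher in HSC and 14 in LSEC. Vipr1, a receptor for vasoactive intestinal peptide, had 5463, 5654, 5076 and 5337 CPM in HSC libraries, against 2.10, 2.73, 1.88 and 1.57 CPM in LSEC libraries. Pth1r, the receptor for parathyroid hormone, had 2806 ± 291 CPM in HSC and 0.827 ± 0.333 CPM in LSEC. Agtr1a, the angiotensin receptor through which stellate cells contract, had 1137 ± 91.7 CPM in HSC and 0.333 ± 0.283 CPM in LSEC, and the endothelin receptors Ednra and Ednrb had 912 ± 62.1 CPM in HSC and 0.336 ± 0.263 CPM in LSEC and 2913 ± 272 CPM in HSC and 81.2 ± 39.6 CPM in LSEC. Sphingosine phosphate receptors were exchanged: S1pr3 had 893 ± 168 CPM in HSC and 0.117 ± 0.0648 CPM in LSEC. S1pr1, which keeps endothelial junctions tight, had 0.689 ± 0.546 CPM in HSC and 349 ± 93.1 CPM in LSEC. So were natriuretic peptide receptors, with Npr3, the clearance receptor, at 189.6 ± 32.6 CPM in HSC and 0.435 ± 0.320 CPM in LSEC and Npr1, a guanylyl cyclase, at 2.97 ± 0.473 CPM in HSC and 488 ± 29.9 CPM in LSEC. Cnr2, a cannabinoid receptor better known from immune cells, had 0.725 ± 0.145 CPM in HSC and 423 ± 27.1 CPM in LSEC.

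Calcrl, the receptor for adrenomedullin and CGRP, was high in both types (2162 ± 230.0 CPM in HSC and 1258 ± 255 CPM in LSEC), but the accessory chains that set its ligand were not alike. Ramp1, which makes it a CGRP receptor, had 633 ± 123 CPM in HSC and 0.315 ± 0.211 CPM in LSEC. Ramp2, which makes it an adrenomedullin receptor, had 52.1 ± 2.92 CPM in HSC and 421 ± 22.2 CPM in LSEC. Both chains were called, in opposite directions, with log2 folds of 10.92 ± 0.34 and -3.01 ± 0.09.

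Scavenger and endocytic receptors lay with LSEC, 15 of 26 tested against 5 for HSC. Stab1 had 2.57, 5.72, 3.87 and 1.35 CPM in HSC libraries, against 3896, 3775, 3770.5 and 4028 CPM in LSEC libraries. Mrc1, the mannose receptor, had 3.02 ± 1.29 CPM in HSC and 2893 ± 144 CPM in LSEC. Fcgr2b, which clears immune complexes, had 2.94 ± 0.694 CPM in HSC and 2272 ± 161 CPM in LSEC. Cd36, a fatty acid and scavenger receptor, had 2.10 ± 0.665 CPM in HSC and 1758 ± 186 CPM in LSEC and Msr1 had 1.75 ± 0.791 CPM in HSC and 1172 ± 184 CPM in LSEC. Clec4g, a lectin of the sinusoid, had 62.5 ± 18.5 CPM in HSC and 4880.0 ± 244 CPM in LSEC. Members higher in HSC included Lrp1, a receptor for proteases and lipoproteins, which had 1574 ± 355 CPM in HSC and 1.42 ± 0.884 CPM in LSEC. Mrc2, which takes up collagen, had 85.3 ± 15.6 CPM in HSC and 0.0654 ± 0.0942 CPM in LSEC. Scarf2 had 1274 ± 84.0 CPM in HSC and 2.11 ± 0.620 CPM in LSEC.

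In the BMP and TGF-beta family Bmpr1a and Acvrl1, both type I receptors, lay on opposite sides. Bmpr1a had 197, 203, 221 and 202 CPM in HSC libraries, against 0.233, 0.396, 0.370 and 0.2004 CPM in LSEC libraries. Acvrl1, the endothelial receptor ALK1, had 0.416, 0.149, 0.399 and 0.329 CPM in HSC libraries, against 100.4, 103, 97.7 and 96.9 CPM in LSEC libraries. Neither gene overlapped, and the log2 folds were 9.40 ± 0.16 and -8.24 ± 0.18. Eng, the co-receptor of ALK1, had 1449 ± 63.2 CPM in HSC and 4083 ± 177 CPM in LSEC. Tgfbr2 had 309 ± 19.9 CPM in HSC and 650.2 ± 64.6 CPM in LSEC and Tgfbr3 871 ± 121 CPM in HSC and 588 ± 47.4 CPM in LSEC, so each was present in both types, and both were called, Tgfbr2 higher in LSEC and Tgfbr3 in HSC. Acvr1, another type I receptor, was not called (62.6 ± 2.93 CPM in HSC and 68.1 ± 7.10 CPM in LSEC). Bambi, a decoy receptor that damps TGF-beta signals, had 445 ± 88.6 CPM in HSC and 29.9 ± 6.61 CPM in LSEC.

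Notch receptors were divided, with one member shared. Notch3, the receptor of mural cells, had 51.9, 77.0, 110.0 and 111 CPM in HSC libraries, against 0.0333, 0.0719, 0 and 0 CPM in LSEC libraries; with 3 counts in all 4 LSEC libraries the ratio was 3494 (95% counting interval 1195 to 16944). Notch4 had 12.0 ± 2.44 CPM in HSC and 224 ± 11.9 CPM in LSEC, and the Fringe genes that modify Notch, Mfng and Lfng, had 0.140 ± 0.104 CPM in HSC and 79.8 ± 9.68 CPM in LSEC and 0.170 ± 0.152 CPM in HSC and 46.2 ± 11.9 CPM in LSEC. Notch1 was present in both with overlapping libraries (239.9 ± 21.5 CPM in HSC and 326 ± 73.2 CPM in LSEC), and its call toward LSEC was lost without HSC replicate 3 or LSEC replicate 1 or 2 (adjusted p 0.0605 to 0.0661). Hes1, a common Notch target, was not called (156 ± 34.1 CPM in HSC and 216 ± 73.5 CPM in LSEC), but was called higher in LSEC with the replicate number as a block (adjusted p = 0.00233) and without LSEC replicate 4 (adjusted p = 0.0227).

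Guidance receptors were used by both sides. Eph receptors lay with HSC, 7 of 9 tested, among them Epha7 with 306 ± 19.4 CPM in HSC and 0.0796 ± 0.0943 CPM in LSEC and Ephb3 with 41.0 ± 8.56 CPM in HSC and no count in LSEC, at least 1644-fold higher, while Ephb4, the venous member, was higher in LSEC (373 ± 23.2 CPM in HSC and 1268 ± 106 CPM in LSEC). Nrp1, a co-receptor for VEGF and semaphorins, had 159.6 ± 11.6 CPM in HSC and 2868 ± 95.5 CPM in LSEC. Nrp2 had 0.396 ± 0.350 CPM in HSC and 399 ± 64.0 CPM in LSEC. Robo4, an endothelial Robo receptor, had 1.59 ± 0.395 CPM in HSC and 1171 ± 77.2 CPM in LSEC and Plxnd1 had 129 ± 16.6 CPM in HSC and 1036 ± 218 CPM in LSEC. Plxnb1 was the plexin with the widest gap toward HSC (147 ± 7.99 CPM in HSC and 0.114 ± 0.0762 CPM in LSEC). Adhesion G protein-coupled receptors were led in LSEC by Adgrf5 (2.999 ± 1.05 CPM in HSC and 2549 ± 358 CPM in LSEC) and Adgrl4 (3.0 ± 1.53 CPM in HSC and 2131 ± 175 CPM in LSEC), and in HSC by Adgra2 (339.5 ± 24.9 CPM in HSC and 78.6 ± 7.18 CPM in LSEC).

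Cytokine receptors were divided as well, though some chains were not called. Of 34 interleukin and interferon receptors tested, 13 were at least 2-fold higher in HSC and 8 in LSEC, and the receptor chains for IL4 and IL13 (Il4ra 218 ± 50.3 CPM in HSC and 261 ± 50.7 CPM in LSEC, Il13ra1 352 ± 23.1 CPM in HSC and 385 ± 64.3 CPM in LSEC) were not called. Il4ra was called higher in LSEC with the replicate number as a block (adjusted p = 0.00864) and without HSC replicate 2 (0.0255), and Il13ra1 without LSEC replicate 1 (0.0454). Il1r1 had 271 ± 15.8 CPM in HSC and 59.1 ± 6.47 CPM in LSEC and Epor, the erythropoietin receptor, had 215 ± 23.2 CPM in HSC and 34.8 ± 2.61 CPM in LSEC. Lepr, the leptin receptor, had 0.416, 0.408, 0.518 and 0.560 CPM in HSC libraries, against 106, 102, 112 and 104 CPM in LSEC libraries, so that it lay with LSEC in all 4 libraries. In the TNF receptor superfamily Tnfrsf11b, the decoy osteoprotegerin, had 1263 ± 286 CPM in HSC and 0.437 ± 0.0965 CPM in LSEC and Tnfrsf21, a death receptor, had 1577 ± 34.5 CPM in HSC and 0.743 ± 0.269 CPM in LSEC. Fas had 2.43 ± 0.372 CPM in HSC and 92.9 ± 14.2 CPM in LSEC and the decoy receptors Tnfrsf22 and Tnfrsf23 had 0.160 ± 0.0639 CPM in HSC and 26.2 ± 3.52 CPM in LSEC and 0.375 ± 0.0758 CPM in HSC and 25.9 ± 1.75 CPM in LSEC. Integrin chains split between Itgb5 (427 ± 57.6 CPM in HSC and 2.87 ± 1.297 CPM in LSEC) and Itgb3 (719 ± 135 CPM in HSC and 50.4 ± 10.04 CPM in LSEC) in HSC and Itga6 (0.199 ± 0.228 CPM in HSC and 84.5 ± 13.1 CPM in LSEC) and Itga5 (45.0 ± 6.35 CPM in HSC and 252 ± 16.3 CPM in LSEC) in LSEC; Itga8 and Itga9 were not called (319.8 ± 51.0 CPM in HSC and 319 ± 49.98 CPM in LSEC; 853 ± 53.6 CPM in HSC and 981 ± 127 CPM in LSEC). Toll-like receptors and cofactors lay with LSEC, 6 of 8 tested, with Tlr4, the receptor for endotoxin, called at under 2-fold (36.0 ± 3.66 CPM in HSC and 50.6 ± 6.25 CPM in LSEC).

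Ligands were tipped toward HSC. The chemokine Cxcl12 had 12619, 11396, 11549 and 12364 CPM in HSC libraries, against 5.06, 4.13, 3.49 and 1.74 CPM in LSEC libraries. Reln, a large secreted guidance protein, had 5674 ± 1322 CPM in HSC and 0.722 ± 0.393 CPM in LSEC. Igfbp3, which binds insulin-like growth factors, had 3503 ± 987 CPM in HSC and 0.943 ± 0.330 CPM in LSEC. Hgf, the growth factor for hepatocytes, had 1577, 1509, 1427 and 1333 CPM in HSC libraries, against 119.9, 117, 35.3 and 77.2 CPM in LSEC libraries; it was far higher in HSC, while LSEC replicate 3 was the lowest of its group. Of 16 chemokines tested 10 were at least 2-fold higher in HSC, among them Cxcl14 (166 ± 29.1 CPM in HSC and 0.0321 ± 0.0437 CPM in LSEC), Cx3cl1 (98.1 ± 4.39 CPM in HSC and 0.0416 ± 0.0832 CPM in LSEC) and Ccl2 (74.5 ± 17.6 CPM in HSC and 1.06 ± 0.329 CPM in LSEC), and 2 in LSEC, Cxcl9 (3.62 ± 1.97 CPM in HSC and 133 ± 29.0 CPM in LSEC) and Cxcl16 (109 ± 5.002 CPM in HSC and 356 ± 32.0 CPM in LSEC).

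Members of the TGF-beta superfamily that were at least 2-fold apart numbered 13 for HSC and 5 for LSEC of 18 tested. Gdf10, a BMP-like ligand, had 1154 ± 71.8 CPM in HSC and 0.329 ± 0.145 CPM in LSEC and Gdf6 had 68.0 ± 23.4 CPM in HSC and 0.0583 ± 0.117 CPM in LSEC. Inhba and Inhbb, which encode the alternative subunits of activin, lay on opposite sides. Inhba had 14.6 ± 1.95 CPM in HSC with 1 count in all of LSEC, a ratio of 1749 (95% counting interval 313 to 69123). Inhbb had 0, 0.371, 0.199 and 0 CPM in HSC libraries, against 143, 108, 26.3 and 32.8 CPM in LSEC libraries. The LSEC libraries differed widely among themselves in Inhbb, but none overlapped HSC. Ltbp1, which anchors latent TGF-beta in the matrix, had 310.4 ± 41.5 CPM in HSC and 0.164 ± 0.121 CPM in LSEC. Ltbp4 had 1835 ± 308 CPM in HSC and 5544 ± 841 CPM in LSEC, and the anchors of latent TGF-beta on the cell surface were Nrros (2.73 ± 2.01 CPM in HSC and 286 ± 44.6 CPM in LSEC) and Lrrc32, which was not called (898 ± 187 CPM in HSC and 847 ± 159 CPM in LSEC).

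Of 12 Wnt ligands, R-spondins and secreted antagonists tested 8 were at least 2-fold higher in HSC and 2 in LSEC. Wnt2, an endothelial Wnt of the central vein side of the lobule, had 0.312, 0.668, 1.64 and 0.922 CPM in HSC libraries, against 353, 367, 257 and 363 CPM in LSEC libraries. Wnt9b had 10.8 ± 6.86 CPM in LSEC and 1 count in all of HSC, a ratio of LSEC over HSC of 1168 (95% counting interval 209 to 46149.7). Rspo3, which strengthens Wnt signals, had 555, 454, 404 and 386 CPM in HSC libraries, against 2.13, 11.1, 4.16 and 2.84 CPM in LSEC libraries; every HSC library stood far above every LSEC library. Wnt4 had 117 ± 23.8 CPM in HSC and 0.487 ± 0.110 CPM in LSEC. Wnt5a had 13.8 ± 2.21 CPM in HSC and 0.00899 ± 0.0180 CPM in LSEC and the secreted antagonist Frzb had 203 ± 23.8 CPM in HSC and 0.170 ± 0.199 CPM in LSEC. The receptor Fzd4 was higher in LSEC (38.6 ± 8.05 CPM in HSC and 208 ± 39.2 CPM in LSEC) and Fzd1 in HSC (179 ± 16.9 CPM in HSC and 7.98 ± 0.596 CPM in LSEC).

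Ligand and receptor of several vascular pairs lay in opposite cell types. Angpt1, which stabilises vessels through Tek, had 38.1 ± 2.22 CPM in HSC and 0.0513 ± 0.0643 CPM in LSEC, while Angpt2, its context-dependent antagonist, had 1.62 ± 0.749 CPM in HSC and 37.7 ± 10.9 CPM in LSEC. Vegfc, a ligand of Flt4, had 89.5, 103, 86.7 and 99.0 CPM in HSC libraries, against 14.9, 13.8, 21.8 and 11.2 CPM in LSEC libraries. Pdgfb, the ligand by which endothelium recruits Pdgfrb-positive mural cells, had 0, 0.186, 0 and 0 CPM in HSC libraries, against 7.09, 11.3, 9.96 and 3.14 CPM in LSEC libraries. Vegfc was higher in every HSC library, and Pdgfb was counted in 1 of 4 HSC libraries and in all LSEC libraries. Vegfa, the main ligand of Kdr, was low in both and not called (9.85 ± 2.77 CPM in HSC and 7.53 ± 2.29 CPM in LSEC). Kitl lay with its receptor Kit in LSEC (30.5 ± 2.72 CPM in HSC and 101 ± 12.4 CPM in LSEC), and Efnb2 lay with its receptor Ephb4 there as well (0.456 ± 0.379 CPM in HSC and 178 ± 34.5 CPM in LSEC).

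Hedgehog genes had no list of their own and are given singly. Dhh, a hedgehog ligand, had 51.2 ± 2.57 CPM in HSC and 0.894 ± 0.350 CPM in LSEC. The receptors Ptch1 and Smo had 60.5 ± 9.57 CPM in HSC and 15.8 ± 2.20 CPM in LSEC and 90.9 ± 4.36 CPM in HSC and 15.8 ± 1.02 CPM in LSEC. Hhip, a secreted decoy, had 683, 551, 508 and 557 CPM in HSC libraries, against 0, 0.180, 0.0617 and 0 CPM in LSEC libraries. Of the transcription factors of the pathway, Gli3 had 32.6 ± 3.26 CPM in HSC and no count in LSEC (at least 1308-fold higher), while Gli1, the usual readout of an active pathway, had 3 counts in all of HSC and 5 in all of LSEC.

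Ligands of the LSEC side were fewer. Tnfsf10, the death ligand TRAIL, had 4.42 ± 1.13 CPM in HSC and 252 ± 44.2 CPM in LSEC, Il1a 0.353 ± 0.208 CPM in HSC and 259 ± 77.3 CPM in LSEC and Il16 0.849 ± 0.305 CPM in HSC and 227 ± 18.3 CPM in LSEC. Egfl7, an endothelial matrix-bound factor, had 33.2 ± 2.07 CPM in HSC and 764 ± 43.4 CPM in LSEC. Sema6a had 1.74 ± 0.510 CPM in HSC and 523 ± 64.1 CPM in LSEC. Edn1, the endothelin whose receptors were high in HSC, did not pass the filter on low counts and was not tested, with 0.139, 0.111, 0 and 0 CPM in HSC libraries, against 0.832, 2.95, 0.432 and 0.2004 CPM in LSEC libraries.

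**Figure D3:**
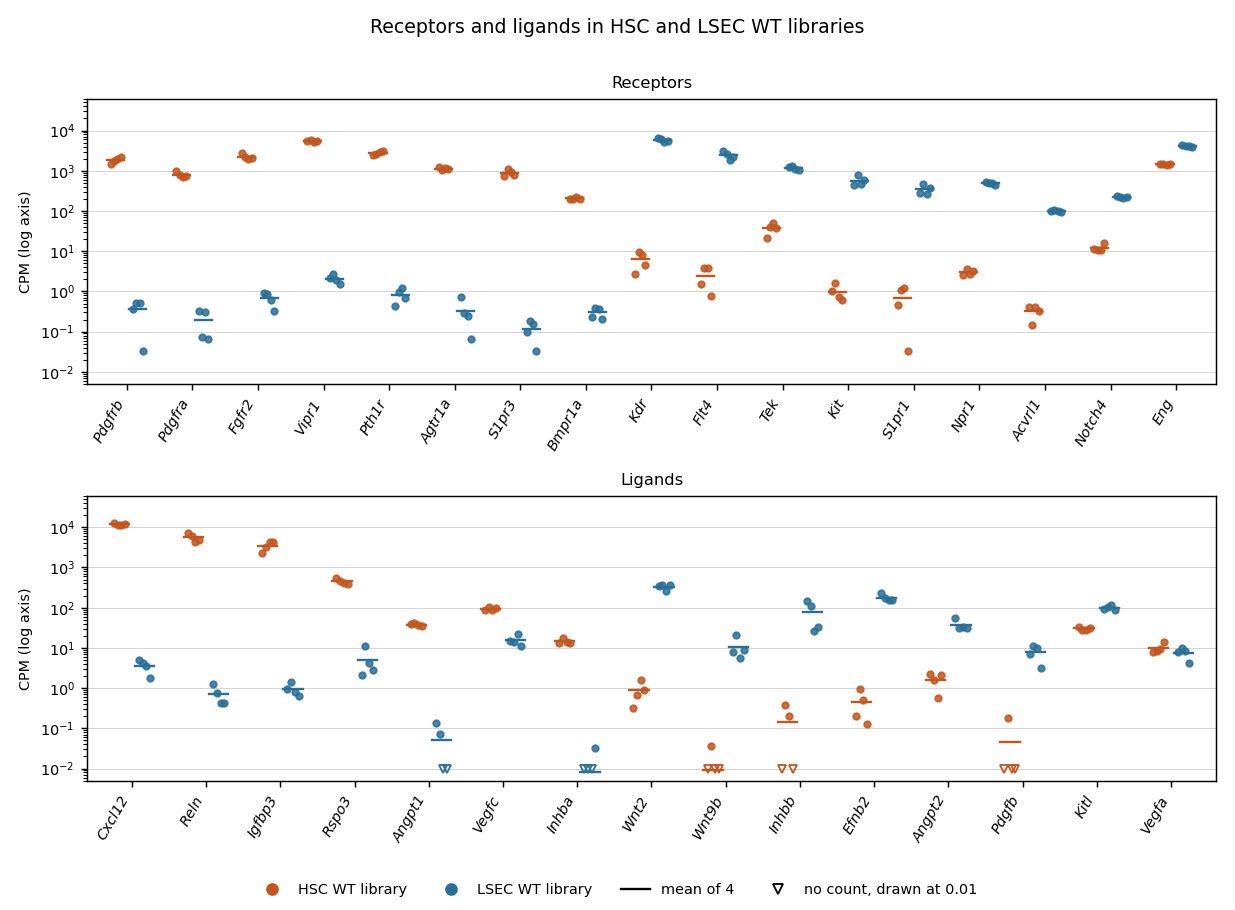
CPM (log axis) of receptors (top) and ligands (bottom) in each HSC and LSEC library of WT mice, drawn as in the plot of transcription factors. Pdgfrb lies at 1480.2 CPM or more in HSC and at 0.524 CPM or less in LSEC, and its ligand Pdgfb shows the opposite order, at 3.14 to 11.3 CPM in LSEC.

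Genes of the interstitial matrix lay mostly with HSC, and those of the basement membrane were divided or shared. Ecm1, a secreted glycoprotein that binds other matrix proteins and restrains TGF-beta activation in mouse liver, had 43529, 38855, 28654 and 33757 CPM in HSC libraries, against 303, 246, 258 and 244 CPM in LSEC libraries. Dcn, the collagen-binding proteoglycan decorin, had 25887, 22925, 19297 and 19947 CPM in HSC libraries, against 6.66, 5.86, 4.50 and 4.24 CPM in LSEC libraries. In both genes HSC libraries stood far above all LSEC libraries, but LSEC still held Ecm1 at a level that many genes do not reach. Of 25 collagen chains tested 18 were at least 2-fold higher in HSC, 1 of them at under 1% of its hepatocyte level, and 4 in LSEC. Col14a1 had 6003 ± 932 CPM in HSC and 1.18 ± 0.209 CPM in LSEC, Col3a1 3193 ± 525 CPM in HSC and 1.23 ± 0.843 CPM in LSEC, Col1a2 1754 ± 115 CPM in HSC and 0.537 ± 0.331 CPM in LSEC, Col1a1 321 ± 30.2 CPM in HSC and 0.308 ± 0.260 CPM in LSEC and Col6a1 701 ± 59.9 CPM in HSC and 0.283 ± 0.269 CPM in LSEC. The 4 on the other side were Col13a1, a transmembrane collagen (0.667 ± 0.363 CPM in HSC and 439.6 ± 67.5 CPM in LSEC), Col17a1 (11.4 ± 2.21 CPM in LSEC, no count in HSC, at least 421-fold higher in LSEC), Col4a3 (0.204 ± 0.0709 CPM in HSC and 5.19 ± 3.27 CPM in LSEC) and Col4a4 (0.0578 ± 0.0668 CPM in HSC and 2.52 ± 1.44 CPM in LSEC).

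Type IV collagen, the sheet of the basement membrane, was made by both cell types. Col4a1 had 1672, 2982, 1835 and 2198 CPM in HSC libraries, against 1561, 1822, 1325 and 1486 CPM in LSEC libraries, called at under 2-fold. Col4a2 had 849, 1442, 1168 and 1267 CPM in HSC libraries, against 920.2, 1074, 781 and 977 CPM in LSEC libraries, not called (adjusted p = 0.0998 by edgeR). The chains form a common trimer, and in both genes the libraries of the cell types overlapped. The call of Col4a1 was lost (adjusted p 0.0626 to 0.105) without HSC replicate 2 or 4 or LSEC replicate 1, 3 or 4, and Col4a2 was called without HSC replicate 1 (adjusted p = 0.0124) and with the replicate number as a block (adjusted p = 0.0467). For laminins, the second sheet, the transcripts of the alpha chains given here and of Lamb1 lay almost wholly in one type. Lamc1 and Lamb2 were counted in both. Lama1, Lamb1 and Lamc1 had 997 ± 109.9 CPM in HSC and 0.128 ± 0.147 CPM in LSEC, 1303 ± 137 CPM in HSC and 0.252 ± 0.0560 CPM in LSEC and 1533 ± 206 CPM in HSC and 139 ± 18.5 CPM in LSEC. Lama4, the endothelial alpha chain, had 3.33, 2.45, 3.23 and 4.38 CPM in HSC libraries, against 582, 408, 383 and 343 CPM in LSEC libraries. Lamb2 had 204 ± 8.66 CPM in HSC and 453 ± 47.0 CPM in LSEC. Lama3 had 13.97 ± 5.64 CPM in LSEC with no count in HSC (at least 518-fold higher in LSEC). Other basement membrane genes were Nid1 (1563 ± 145 CPM in HSC and 839 ± 69.5 CPM in LSEC), Hspg2, the proteoglycan perlecan (181 ± 33.2 CPM in HSC and 698 ± 71.1 CPM in LSEC) and Ntn4, which disrupts laminin networks (11.4 ± 3.18 CPM in HSC and 784 ± 189 CPM in LSEC).

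Proteins that assemble and cut matrix followed the collagens. Of 23 collagen processing genes 14 were at least 2-fold higher in HSC and 1 in LSEC; Serpinh1, the collagen chaperone, had 1976 ± 513 CPM in HSC and 296 ± 87.0 CPM in LSEC. Among matrix glycoproteins 22 of 26 were at least 2-fold higher in HSC, including Postn (1420.5 ± 279 CPM in HSC and 0.182 ± 0.0739 CPM in LSEC), Tgfbi (4287 ± 1037 CPM in HSC and 1.89 ± 0.682 CPM in LSEC) and Fn1, fibronectin (1717 ± 261 CPM in HSC and 2.33 ± 0.616 CPM in LSEC), and the 2 higher in LSEC were Mmrn2, an endothelial emilin (1.97 ± 0.701 CPM in HSC and 1080.4 ± 102 CPM in LSEC) and Vwf (1.15 ± 0.774 CPM in HSC and 16.9 ± 9.60 CPM in LSEC). Of inhibitors and proteases, Timp2 had 1287 ± 77.8 CPM in HSC and 20.5 ± 7.30 CPM in LSEC. Timp3 had 503 ± 96.6 CPM in HSC and 1347 ± 80.6 CPM in LSEC. Mmp2 had 299 ± 30.8 CPM in HSC and 0.107 ± 0.114 CPM in LSEC. Mmp14, which activates Mmp2, was called at under 2-fold (212 ± 43.2 CPM in HSC and 295 ± 71.5 CPM in LSEC), a call that was lost without HSC replicate 1, 3 or 4 or LSEC replicate 1 or 2 (adjusted p 0.0504 to 0.126). Adamts13, the protease that cuts von Willebrand factor, had 943 ± 40.4 CPM in HSC and 5.15 ± 1.16 CPM in LSEC, so protease and substrate lay in opposite types. Hyaluronan genes of LSEC were Hyal2 (27.5 ± 1.71 CPM in HSC and 569 ± 52.0 CPM in LSEC) and Tmem2, a cell-surface hyaluronidase (11.9 ± 2.19 CPM in HSC and 1134 ± 192 CPM in LSEC), and Srgn, a granule proteoglycan, had 1.45 ± 0.274 CPM in HSC and 345 ± 57.6 CPM in LSEC.

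**Figure D4:**
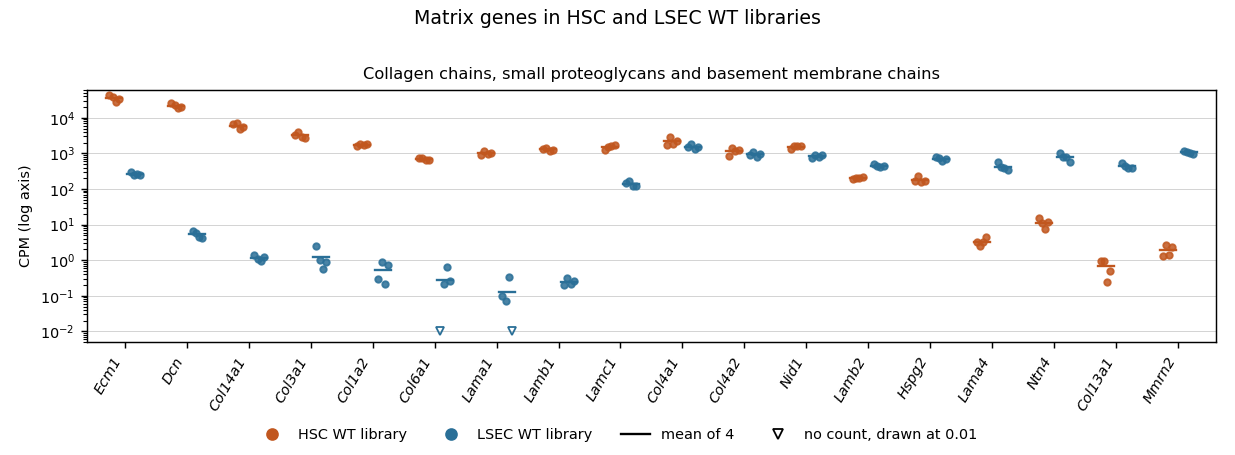
CPM (log axis) of matrix genes in each HSC and LSEC library of WT mice, drawn as in the plot of transcription factors. The points of Col4a1 and Col4a2 lie close together in both types, between fibrillar collagens high in HSC and genes such as Lama4, Ntn4 and Col13a1 high in LSEC.

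Of 24 retinoid genes tested 12 were at least 2-fold higher in HSC and 3 in LSEC; of the 12, 4 stood at under 1% of their hepatocyte level. Beside Lrat, HSC held Bco1, which cleaves carotene (144 ± 28.4 CPM in HSC and 0.244 ± 0.176 CPM in LSEC), and Aldh1a1, which makes retinoic acid (287 ± 16.7 CPM in HSC and 0.658 ± 0.423 CPM in LSEC). LSEC held Cyp26b1, which degrades retinoic acid, with 0.139, 0.149, 0.279 and 0.0329 CPM in HSC libraries, against 177, 267, 21.7 and 120.5 CPM in LSEC libraries. Dhrs3, which turns retinal back into retinol, had 87.4 ± 25.2 CPM in HSC and 438 ± 39.6 CPM in LSEC. Cyp26b1 was lowest in replicate 3 among LSEC libraries and did not overlap HSC. Adh5, Rdh11 and Rdh14 were not called. Cytochrome P450 genes gave 27 of 47 at least 2-fold higher in HSC and 7 in LSEC, but 22 of the 27 stood at under 1% of their hepatocyte level, with Cyp2e1 at 21.7 ± 10.2 CPM in HSC and 5.11 ± 1.998 CPM in LSEC. Cyp4b1, on the other side, had 104 ± 32.0 CPM in HSC and 3496 ± 353 CPM in LSEC.

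Of 24 nitric oxide, arginine and cyclic GMP genes tested 9 were at least 2-fold higher in HSC and 11 in LSEC. Nos3, the endothelial synthase, had 0.347, 1.26, 0 and 0.461 CPM in HSC libraries, against 322, 311, 204 and 233 CPM in LSEC libraries. Gucy1a3, a subunit of the soluble guanylyl cyclase that nitric oxide activates, had 1166, 1287, 1301 and 1259.7 CPM in HSC libraries, against 0.799, 0.252, 0.956 and 1.04 CPM in LSEC libraries. One cell type held the enzyme and the other the receptor of the gas, without overlap in any library. Gucy1b3, the partner subunit, had 488 ± 31.0 CPM in HSC and 6.46 ± 2.04 CPM in LSEC and Prkg1, the kinase downstream, had 128 ± 15.7 CPM in HSC and 10.9 ± 1.49 CPM in LSEC. The phosphodiesterases of this list differed. Pde3a (186 ± 20.3 CPM in HSC and 0.0417 ± 0.0168 CPM in LSEC) and Pde5a (40.01 ± 6.80 CPM in HSC and 6.61 ± 0.995 CPM in LSEC) lay with HSC. Pde2a lay with LSEC (3.90 ± 0.845 CPM in HSC and 2052 ± 271 CPM in LSEC). Ddah1, which removes an inhibitor of the synthase, and Gch1, which makes its cofactor, had 1.67 ± 0.249 CPM in HSC and 62.8 ± 10.4 CPM in LSEC and 0.655 ± 0.322 CPM in HSC and 34.7 ± 2.48 CPM in LSEC.

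Of 49 genes of triglycerides, lipid droplets and fatty acids tested 18 were at least 2-fold higher in HSC, 2 of them at under 1% of their hepatocyte level, and 12 in LSEC. Lpl, lipoprotein lipase, had 97.3 ± 23.5 CPM in HSC and 0.760 ± 0.458 CPM in LSEC. Gpihbp1, the endothelial protein that holds the lipase at the vessel wall, had 1.46, 2.45, 3.23 and 2.01 CPM in HSC libraries, against 1350.2, 1212, 1506 and 1381 CPM in LSEC libraries. G0s2, an inhibitor of lipid droplet lipolysis, had 265 ± 26.4 CPM in HSC and 0.341 ± 0.152 CPM in LSEC. Plin2, a droplet coat protein, had 370.5 ± 14.2 CPM in HSC and 165 ± 14.8 CPM in LSEC. Fabp4 and Fabp5, fatty acid carriers, had 0.592 ± 0.240 CPM in HSC and 148 ± 50.4 CPM in LSEC and 1.55 ± 0.515 CPM in HSC and 166 ± 31.4 CPM in LSEC. Of 28 sphingolipid genes tested 5 were at least 2-fold higher in HSC and 8 in LSEC. The lipid phosphate phosphatases Ppap2b and Ppap2a had 58.3 ± 5.75 CPM in HSC and 2723 ± 271 CPM in LSEC and 70.0 ± 9.42 CPM in HSC and 1295 ± 207 CPM in LSEC, and Spns2, the exporter of sphingosine phosphate, had 2.10 ± 0.162 CPM in HSC and 229 ± 24.2 CPM in LSEC. Of 21 prostanoid, leukotriene and epoxide genes tested 5 were at least 2-fold higher in HSC, 1 of them at under 1% of its hepatocyte level, and 8 in LSEC. Slco2a1, which takes up prostaglandins, had 1.66 ± 0.665 CPM in HSC and 746 ± 131 CPM in LSEC, and Hpgd, which breaks them down, had 8.64 ± 2.03 CPM in HSC and 563 ± 177 CPM in LSEC.

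Surface enzymes for nucleotides and peptides differed between the types. Nt5e, which makes adenosine, had 411 ± 18.5 CPM in HSC and 0.428 ± 0.272 CPM in LSEC. Cd38 had 94.8 ± 20.9 CPM in HSC and 1895 ± 312 CPM in LSEC. Enpep, which cuts angiotensin, had 31.9 ± 3.03 CPM in HSC and 667 ± 87.7 CPM in LSEC. Dpp4 had 2.12, 4.01, 3.31 and 2.50 CPM in HSC libraries, against 1769.8, 1892, 1816 and 1774 CPM in LSEC libraries. Steap4, a metalloreductase, was among the highest HSC genes (8328 ± 1382 CPM in HSC and 2.62 ± 0.361 CPM in LSEC), and Abcc9, a subunit of ATP-sensitive potassium channels in mural cells, had 3853 ± 771 CPM in HSC and 51.8 ± 9.73 CPM in LSEC. Slc39a8, a zinc and manganese importer, had 5.78 ± 1.41 CPM in HSC and 650.4 ± 96.1 CPM in LSEC. Oxidative phosphorylation hardly separated the types: of 80 subunit genes tested 45 were not called, 10 were called higher in HSC and 25 in LSEC, and 1 was at least 2-fold apart, Cox4i2, with 4.91 ± 1.11 CPM in HSC and no count in LSEC.

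Contractile genes lay with HSC (18 of 34 at least 2-fold higher, 3 in LSEC). Des, desmin, had 528 ± 52.4 CPM in HSC and 0.497 ± 0.252 CPM in LSEC, Myl9 182 ± 73.7 CPM in HSC and 0.243 ± 0.147 CPM in LSEC, Cald1 486 ± 63.0 CPM in HSC and 87.2 ± 14.98 CPM in LSEC and Gfap, the glial filament also found in stellate cells, had 50.8, 54.8, 38.9 and 38.8 CPM in HSC libraries and no count in LSEC, at least 1836-fold higher. Acta2, the actin of activated stellate cells and smooth muscle, was low (6.50 ± 3.94 CPM in HSC and 0.246 ± 0.232 CPM in LSEC), and Vim was not called (259.8 ± 30.8 CPM in HSC and 279 ± 17.8 CPM in LSEC). Markers of vascular smooth muscle and pericytes summed to 4706 to 6398 CPM in HSC and 54.9 to 78.4 CPM in LSEC, of which Abcc9, just given, was the largest. Portal fibroblast markers summed to 253 to 453 CPM in HSC and 2319 to 2755 CPM in LSEC, of which Dpp4 and Ly6a, genes that LSEC also express, made up all but 38.4 to 48.2 CPM in HSC and 66.3 to 81.3 CPM in LSEC. How far other mural or mesenchymal cells contributed was not tested.

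Plvap, which forms the diaphragms of endothelial fenestrae and caveolae, was higher in HSC: 13862, 13983, 15019 and 14567 CPM in HSC libraries, against 391, 459, 495 and 511 CPM in LSEC libraries (log2 fold 4.95 ± 0.15, adjusted p = 3.08e-10 by edgeR). All 4 HSC libraries exceeded all 4 LSEC libraries. Sinusoidal markers stood in HSC at a median of 0.142% of their LSEC level, and large vessel endothelial markers summed to 1315 to 1421 CPM in HSC and 598 to 905 CPM in LSEC, with 4 of its 13 members tested at least 2-fold higher in HSC (Rspo3, Fbln5, Hey1 and Vegfc) and 7 in LSEC, among them Vwf and Cd34 at 1.15 ± 0.774 CPM in HSC and 16.9 ± 9.60 CPM in LSEC and 0.886 ± 0.339 CPM in HSC and 62.9 ± 7.34 CPM in LSEC. Caveola genes were divided in turn. Cav1 had 0, 0.371, 0.758 and 0.230 CPM in HSC libraries, against 78.1, 102, 108 and 101 CPM in LSEC libraries. Cav2 had 56.3 ± 8.85 CPM in HSC and 601 ± 118 CPM in LSEC and Sdpr, a cavin, had 2.61 ± 1.34 CPM in HSC and 1117 ± 145 CPM in LSEC, while Ptrf, another cavin, had 333 ± 35.9 CPM in HSC and 118 ± 7.05 CPM in LSEC and Prkcdbp and Ehd2 had 70.8 ± 3.24 CPM in HSC and 0.607 ± 0.454 CPM in LSEC and 153 ± 20.9 CPM in HSC and 0.732 ± 0.570 CPM in LSEC. Dab2, a clathrin adaptor, had 24.1 ± 3.39 CPM in HSC and 1343 ± 148 CPM in LSEC. Of 32 genes tested in the list of endocytosis, caveola and fenestra genes 5 were at least 2-fold higher in HSC and 17 in LSEC.

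Junction genes lay on both sides. Of 33 endothelial junction and gap junction genes tested 9 were at least 2-fold higher in HSC and 15 in LSEC. Of 27 cadherins and claudins 16 were so in HSC and 8 in LSEC. Under 1% of the hepatocyte level stood 2 of the 9 and 1 of the 16. Pecam1 had 0.521, 1.93, 0.837 and 0.625 CPM in HSC libraries, against 1001, 963, 850.3 and 847 CPM in LSEC libraries. Cdh5, the cadherin of endothelial junctions, had 0.931 ± 0.433 CPM in HSC and 534 ± 45.9 CPM in LSEC, Cldn5 0.944 ± 0.136 CPM in HSC and 565 ± 52.5 CPM in LSEC, Jam2 1.54 ± 0.852 CPM in HSC and 816 ± 58.5 CPM in LSEC and Esam 204 ± 9.64 CPM in HSC and 1019.6 ± 106 CPM in LSEC. Cdh2, N-cadherin, had 585 ± 38.1 CPM in HSC and 0.581 ± 0.527 CPM in LSEC. Gjc1, a gap junction gene, had 38.3 ± 3.36 CPM in HSC and 0.646 ± 0.309 CPM in LSEC. Icam1 was not called (195 ± 17.7 CPM in HSC and 193 ± 23.1 CPM in LSEC), and Vcam1 was higher in HSC (483 ± 97.4 CPM in HSC and 155 ± 20.7 CPM in LSEC).

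Blood protein genes were also divided. F8, coagulation factor VIII, had 1.56, 3.68, 1.64 and 2.24 CPM in HSC libraries, against 1973, 2179.8, 1784 and 1777 CPM in LSEC libraries, far apart in every library. Of 27 coagulation genes 17 were at least 2-fold higher in HSC and 6 in LSEC, but 11 of the 17 stood at under 1% of their hepatocyte level. Of 30 complement and collectin genes 20 were at least 2-fold higher in HSC, 5 of them under 1% of the hepatocyte level, and 6 in LSEC. Colec11 and Colec10, collectins that recognise sugars on microbes, had 4977 ± 213 CPM in HSC and 1.498 ± 0.292 CPM in LSEC and 4646 ± 237 CPM in HSC and 1.54 ± 0.113 CPM in LSEC. Fcna, a ficolin, had 3409.9, 2369, 1725 and 1916 CPM in HSC libraries, against 2.66, 3.16, 3.12 and 4.74 CPM in LSEC libraries. Serping1, the C1 inhibitor, had 3020.0 ± 317 CPM in HSC and 3.6 ± 1.10 CPM in LSEC. The regulators that shield a cell surface from complement, Cd55 and Cd59a, had 1.44 ± 0.642 CPM in HSC and 768 ± 120.0 CPM in LSEC and 6.12 ± 1.06 CPM in HSC and 322 ± 28.9 CPM in LSEC. MHC class II and antigen presentation genes gave 0 of 21 at least 2-fold higher in HSC and 7 in LSEC, with 8 called higher in HSC at under 2-fold. Cd74 had 7.07 ± 4.85 CPM in HSC and 26.3 ± 15 CPM in LSEC. The Kupffer cell and lymphocyte marker sums given above were also higher in LSEC (70.1 to 87.7 and 2.62 to 9.12 CPM there), and their part in these genes was not tested. The class I genes H2-K1 (3624 ± 234 CPM in HSC and 1884 ± 59.8 CPM in LSEC) and B2m (6202 ± 203 CPM in HSC and 3661 ± 597 CPM in LSEC) were called higher in HSC at under 2-fold.

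Cell cycle genes were low in both. None of 28 was called higher in HSC, 21 were called higher in LSEC by edgeR, 17 of them at least 2-fold, and their sum was 244 to 263 CPM in HSC and 462 to 750.1 CPM in LSEC. Mcm6, a replication helicase subunit, had 22.2 ± 2.48 CPM in HSC and 90.3 ± 19.3 CPM in LSEC. Lists of zonal genes varied between the libraries of a type. The portal stellate list summed to 3340.4, 4705, 6099 and 5962 CPM in HSC replicates 1 to 4 and to 43.0 to 65.6 CPM in LSEC, and the pericentral stellate list to 1249, 833, 691 and 725 CPM in HSC replicates 1 to 4 and to 29.4 to 54.5 CPM in LSEC. HSC replicate 1 was lowest in the first and highest in the second. Among LSEC replicates 1 to 4 the pericentral endothelial list summed to 1234, 1856, 1167 and 1381 CPM, with 500 to 692 CPM in HSC. The periportal list summed to 12838, 10513, 11713 and 10823 CPM, with 1757 to 2422 CPM in HSC. Most of these HSC sums came from Rspo3 in the pericentral list and Ltbp4 in the periportal list, whose levels are given above. Of 9 pericentral members tested 7 were at least 2-fold higher in LSEC and 1 in HSC, and of 9 periportal members 9 and 0.

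Libraries taken after the depletion of Kupffer cells repeated the contrast with no library in common. At 12 h, 6584 of 12567 genes tested (52.4%) were called between HSC and LSEC and 49.7% did not overlap. At 36 h 7748 of 12785 (60.6%) were called and 57.2% did not overlap. Of the 2544 genes at least 2-fold higher in WT HSC, 2382 were tested at 12 h, where 2172 (91.2%) were called in the same direction, and 2502 at 36 h, where 2274 (90.9%) were. Of the 1984 higher in WT LSEC, 1916 were tested at 12 h, where 1783 (93.1%) were called in the same direction, and 1949 at 36 h, where 1903 (97.6%) were. The shares called in one direction over all genes were 25.9% for HSC and 26.5% for LSEC at 12 h, and 30.1% and 30.5% at 36 h. Lrat had a log2 fold of 10.17 at 12 h and 9.26 at 36 h, and Stab2 one of -10.19 and -10.27. At 36 h Lrat had 3675, 6304, 4668 and 3934 CPM in HSC libraries, against 0.940, 3.70, 2.26 and 23.5 CPM in LSEC libraries. LSEC replicate 4 stood apart there, and without it 7869 genes were called at 36 h.

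Among the genes called and at least 2-fold apart in WT libraries, 6 were called in the opposite direction at 12 h. The smaller WT calls are not in this count, which comes from edgeR calls in separate fits, and the change of the contrast itself was not tested. Tnfaip2, a gene induced by TNF, had 108, 47.0, 124 and 28.8 CPM in HSC libraries, against 20.96, 30.0, 24.9 and 24.7 CPM in LSEC libraries at 12 h, and 3.69 ± 0.915 CPM in HSC and 23.8 ± 5.27 CPM in LSEC in WT libraries. The metallothioneins Mt1 and Mt2 bind zinc and are induced by stress and cytokines. Mt1 had 472 ± 120.4 CPM in HSC and 284 ± 54.3 CPM in LSEC at 12 h, and 51.8 ± 18.2 CPM in HSC and 139 ± 42.7 CPM in LSEC in WT libraries. Mt2 had 224 ± 46.9 CPM in HSC and 68.0 ± 16.4 CPM in LSEC at 12 h, and 10.3 ± 3.21 CPM in HSC and 26.6 ± 10.3 CPM in LSEC in WT libraries. Osmr, the oncostatin M receptor, had 219 ± 56.3 CPM in HSC and 147 ± 30.0 CPM in LSEC at 12 h, and 64.5 ± 11.1 CPM in HSC and 215 ± 29.5 CPM in LSEC in WT libraries. The remaining genes were higher in LSEC at 12 h and in HSC in WT libraries. Myc, a growth-associated factor, had 73.3 ± 46.4 CPM in HSC and 219 ± 149 CPM in LSEC at 12 h, and 59.7 ± 22.2 CPM in HSC and 10.46 ± 5.87 CPM in LSEC in WT libraries. Plagl1, a zinc finger factor, had 19.9 ± 3.61 CPM in HSC and 39.3 ± 9.83 CPM in LSEC at 12 h, and 30.4 ± 5.33 CPM in HSC and 11.6 ± 3.66 CPM in LSEC in WT libraries. At 12 h the libraries of the cell types overlapped in Tnfaip2, Osmr and Myc and lay apart in Mt1, Mt2 and Plagl1. These 6 genes were picked for that turn, so their values are a description.

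**Figure D5:**
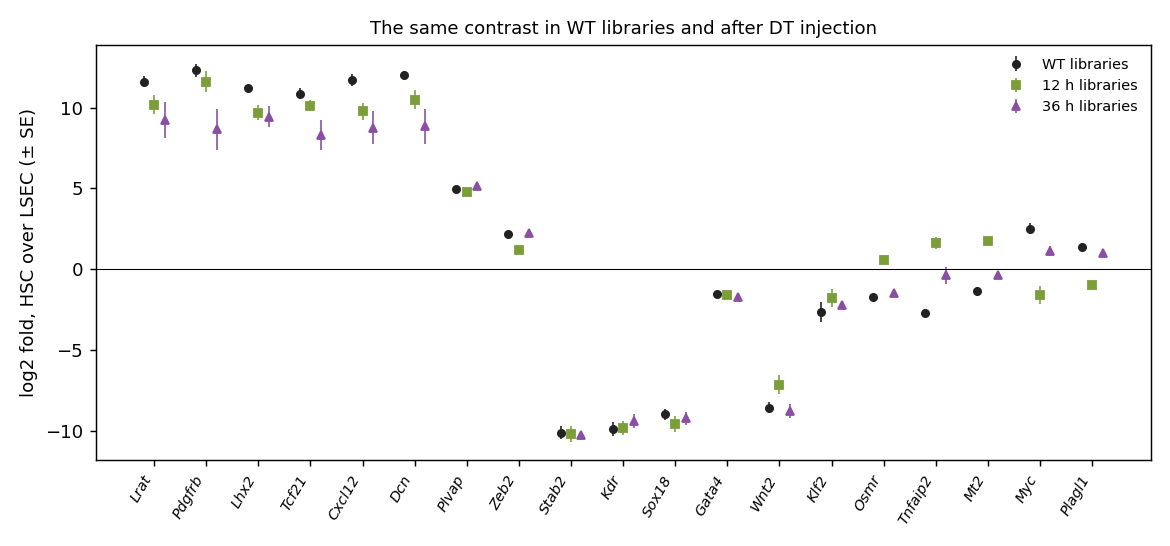
Log2 fold of HSC over LSEC (points, ± SE) for 19 genes in WT libraries and in libraries taken 12 h and 36 h after the injection; values above 0 are higher in HSC. Markers such as Lrat and Stab2 stay far from 0 in all conditions, while Osmr, Tnfaip2, Mt2, Myc and Plagl1 lie on the other side of 0 at 12 h.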

How the data were processed

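Total RNA of HSC, LSEC and hepatocytes was sequenced in bulk, and the deposited files hold raw read counts for 24421 gene symbols and 5 closing lines per library, which were left out (reads in no feature were 6.63% to 7.43% of the 8 WT libraries of HSC and LSEC). Per the submitters' processing notes, the authors used FastQC 0.11.4, Trimmomatic 0.35, TopHat2 2.1.0 and SAMtools 0.1.18 on the build mm10. The annotation, the counter and whether it used strand were not given in the sources used here, so reads of overlapping, antisense or near-identical genes could not be told apart.

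The quasi-likelihood functions glmQLFit and glmQLFTest of edgeR 4.0.16 (R 4.3.3) were run on the counts of the 4 HSC and 4 LSEC libraries of a condition, after TMM scaling and filterByExpr (a minimum count of 10 and a total of at least 15), and p-values were adjusted by the Benjamini-Hochberg method over all genes tested. The threshold was an adjusted p of 0.05, and the SE of a log2 fold is its absolute size over the square root of the F statistic. Where a cell type had no count, the fold is a bound, taken with 3 counts over its 4 libraries in place of 0, and with 1 to 3 counts it is a ratio with an exact binomial 95% interval. Both cover counting error only. Totals of 25.9 to 31.7 counts per library, in units of 1000000, set the precision.

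Libraries of both types with the same number tended to deviate together. The correlations of their deviations from the group means were 0.319, 0.421, 0.286 and 0.113 for numbers 1 to 4. HSC replicate 3 and LSEC replicate 4 also correlated, at 0.293, above the value for number 4. The main fits used no pairs, and the replicate number was a block only in an alternative fit. That block rests on these values, since no label ties libraries to animals. The alternatives were RLE scaling, no filter, DESeq2 1.42.0, the replicate number as a block, glmTreat against 2-fold, all 12 WT libraries and leaving out each library. A fit without replicate 2 of both types was added after seeing the data.

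The comparison and the gene lists were chosen with earlier results of these data known. Genes are named by rule: the 15 largest folds each way at 20 CPM or more without overlap, in each list up to 6 called members each way at least 2-fold apart at 5 CPM or more by level, up to 2 others at 20 CPM or more, and up to 4 members of each marker list of other cells. Some genes that meet the rule are not reported here. Genes named outside this rule were chosen after their values were seen; they include Acta2, Acvr1, Aqp1, Camp, Chil3, Clec4f, Col1a1, Col4a4, Cox4i2, Edn1, Elane, Gch1, Gli1, Gli3, Gpr182, H2-K1, Hba-a1, Hba-a2, Hbb-b1, Hbb-b2, Hbb-bt, Hes1, Icam1, Il13ra1, Il4ra, Inhba, Itga8, Lpl, Mpo, Mt1, Mt2, Myc, Myl9, Ngp, Npr3, Plagl1, Ptch1, Ramp1, Rarb, Rdh11, Rdh14, S1pr3, Smo, Sox8, Tnfaip2, Twist1, Vegfa and Vim. Promoters come from RefSeq (GRCm38.p6) and exon lengths from GENCODE M21, matched by symbol for 23334 of 24421 symbols.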

Additional observations from a re-analysis of the deposited data

Results flagged for a closer look

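In groups of 4 libraries, a library was marked where its gap to the nearest of the others exceeded the share of the range that Dixon's rule allows at 95%. Among 575 groups of the genes named, 28 (4.87%) were marked, and chance marks about 1 in 20 groups. No explanation was tested for any of them.

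In HSC replicate 1 Colec10 stood at 4293 CPM, below 4724 to 4795 CPM in the others, and Cyp2e1 stood at 36.9 CPM, above 15.7 to 17.9 CPM in the others. Cyp4b1 stood at 56.3 CPM, below 115 to 123 CPM in the others, and Nid1 stood at 1347 CPM, below 1614 to 1649 CPM in the others. Nr1h4 stood at 371 CPM, above 314 to 319.6 CPM in the others, and Pde2a stood at 2.64 CPM, below 4.196 to 4.41 CPM in the others. Pde3a stood at 156 CPM, below 192 to 198 CPM in the others, and Steap4 stood at 6256 CPM, below 8962 to 9092 CPM in the others. In HSC replicate 2 Gata2 stood at 1.63 CPM, above 0.486 to 0.560 CPM in the others, and Hspg2 stood at 231 CPM, above 162 to 169 CPM in the others. Klf2 stood at 528 CPM, above 101 to 126 CPM in the others, and Klf4 stood at 16.4 CPM, above 1.56 to 2.86 CPM in the others. Osmr stood at 80.9 CPM, above 57.1 to 61.1 CPM in the others, and Pde5a stood at 50.1 CPM, above 35.8 to 37.9 CPM in the others. Pdgfb stood at 0.186 CPM, above the others, which had no count. In HSC replicate 3 Hhex stood at 1.08 CPM, above 0.230 to 0.278 CPM in the others. In HSC replicate 4 Clec4f stood at 1.48 CPM, above 0.279 to 0.446 CPM in the others, and Notch4 stood at 15.7 CPM, above 10.4 to 11.1 CPM in the others. In LSEC replicate 1 Angpt2 stood at 53.9 CPM, above 30.8 to 33.9 CPM in the others, and Colec11 stood at 1.07 CPM, below 1.60 to 1.70 CPM in the others. Cx3cl1 stood at 0.166 CPM, above the others, which had no count, and G0s2 stood at 0.566 CPM, above 0.247 to 0.301 CPM in the others. Gdf6 stood at 0.233 CPM, above the others, which had no count. In LSEC replicate 2 Cyp2e1 stood at 2.12 CPM, below 5.93 to 6.31 CPM in the others, and Il4ra stood at 337 CPM, above 231 to 244 CPM in the others. In LSEC replicate 3 Wnt2 stood at 257 CPM, below 353 to 367 CPM in the others. In LSEC replicate 4 Pde3a stood at 0.0668 CPM, above 0.0308 to 0.0360 CPM in the others, and Tbx20 stood at 0.0668 CPM, above 0.0308 to 0.0360 CPM in the others. Such values, and those of Cx3cl1, Gdf6 and Pdgfb given here, rest on a few reads per library.

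In some genes all 4 HSC libraries lay on one side of all 4 LSEC libraries in WT mice and on the other side after the injection; this difference between conditions was not tested. Mt1 had a log2 fold of HSC over LSEC of 0.73 at 12 h and -1.42 in WT libraries. Mt2 had a log2 fold of HSC over LSEC of 1.72 at 12 h and -1.37 in WT libraries. Plagl1 had a log2 fold of HSC over LSEC of -0.98 at 12 h and 1.39 in WT libraries.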

How the results depend on the processing

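No total of called genes moved by more than 1.5 times under any alternative run, and no gene called was called in the other direction under them. Calls in WT libraries numbered 8342 with RLE scaling, 8861 with no filter, 8937 with DESeq2, 7606 in the fit of all 12 WT libraries and 7670 in edgeR on the 6 libraries without replicate 2. With the replicate number as a block they numbered 8882 in WT libraries, 7489 at 12 h and 7929 at 36 h, and 8272 of the 8349 WT calls (99.1%) were called in both. Leaving out one library gave 7959 to 8296 WT calls, 4544 to 4655 calls at least 2-fold apart, 6074 to 6528 calls at 12 h and 7276 to 7869 at 36 h. Counts within the gene lists were less stable: of 172, those that moved by more than 1.5 times were 11 with no filter, 10 with DESeq2, 5 with all 12 WT libraries, 4 without replicate 2 of both types, 3 with the replicate block, 0 with RLE and 3 to 6 without one library. Tested against a fold of 2 with glmTreat, 3652 WT genes were called. The median log2 fold of all genes was 0.05 or less in size under each scaling.

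Of 292 genes named and tested under the block, 5 were newly called (Col4a2, Hes1, Hlx, Igfbp7 and Il4ra) and 0 lost their call; Igfbp7 had adjusted p = 0.0498 with the replicate block and 0.0474 by DESeq2. Fitted with hepatocyte libraries in the same model, Col4a1, Ly6a, Mmp14, Nid1 and Tgfbr3 lost their call, and without replicate 2 of both types Notch1 did (adjusted p = 0.0589 by edgeR). Against 2-fold with glmTreat, 9 of 259 genes named lost their call. The causes were not tested. Depth limits the low side of the largest folds, which rest on a few reads per library.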
